A study of Mus musculus with 30 samples.

Results

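Transcript levels of the methionine cycle and its betaine branch were followed in 30 single mouse blastocysts. The genes were 9, chosen by the measured difference of Bhmt, which was higher in twin than in undivided blastocysts, and by their place in the pathway around it: Bhmt, Bhmt2, Dmgdh, Mtr, Mtrr, Cbs, Mat2a, Mat2b and Ahcy. For each gene the transcript cluster (the array's unit of summarised probes) with that single gene symbol and the highest mean over the 30 arrays was used. Of the 9 genes, 8 had such a cluster, out of 30142 genes in all. Mat2a was not analysed here. A filter kept the upper 60% of genes by mean over all arrays, 18086 genes, and 7 of the 8 passed it. Bhmt2, with a mean of 4.70 against a lowest kept mean of 4.8, did not.

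The twins were monozygotic, from B6C3F1 × CD1 matings, made by separating the sister blastomeres of 10 2-cell embryos. Of each pair of sisters, 1 was raised by itself in GM501 (10 arrays) and the other in SAGE 1-Step (10 arrays), media used in assisted human reproduction. The 10 controls came from the same kind of mating, were not divided, and were kept singly in KSOM(aa), an amino-acid supplemented medium for mouse embryos in which the twins' embryos too had reached the 2-cell stage. All zygotes came from oviducts of hormonally stimulated females, and all blastocysts were lysed 4 days post coitum after 96 h in culture. Twin blastocysts held about 40 to 50 cells and controls about 80, per the labels. Against controls, therefore, medium, division and cell number cannot be told apart; between the twin groups the medium differs and the embryo of origin is shared.

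In the methionine cycle, methionine is activated to S-adenosylmethionine, the methyl donor of most methylation reactions, and the homocysteine left behind is either methylated again or passed on to cysteine synthesis. Methionine synthase remethylates homocysteine with a methyl group from folate and cobalamin as cofactor, whereas betaine-homocysteine methyltransferase takes the methyl group from betaine, a product of choline. The betaine enzyme is best known from liver and kidney, and its activity has also been described in the mouse blastocyst.

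The 9 genes spread over 5 chromosomes, and Bhmt, Bhmt2 and Dmgdh are neighbours on chromosome 13. In RefSeq's annotation of GRCm38.p6, Bhmt lies at chr13:93616891-93637758 on the minus strand. Bhmt2 (chr13:93656097-93674302, minus strand) and Dmgdh (chr13:93674436-93752823, plus strand) start head to head, 134 bases apart. Mtr (chr13:12181331-12258199) and Mtrr (chr13:68560780-68582169) are on the same chromosome, and Cbs is at chr17:31612623-31637233. Promoter windows from RefSeq's table, 250 bases before to 50 bases after the transcript start it uses, which for Mtr and Cbs lies inside the gene's outer end, are printed for Bhmt, the gene with the greatest difference from controls, for Dmgdh, whose window shares 233 bases with that of Bhmt2, and for Mtr and Cbs, which were both lower in 1 set of twin pairs than in the other. They are RefSeq sequence on each gene's own strand, and capitals mark each CG dinucleotide. The windows are chr13:93637709-93638008 (Bhmt), chr13:93674186-93674485 (Dmgdh), chr13:12258064-12258363 (Mtr) and chr17:31637156-31637455 (Cbs).
Bhmt: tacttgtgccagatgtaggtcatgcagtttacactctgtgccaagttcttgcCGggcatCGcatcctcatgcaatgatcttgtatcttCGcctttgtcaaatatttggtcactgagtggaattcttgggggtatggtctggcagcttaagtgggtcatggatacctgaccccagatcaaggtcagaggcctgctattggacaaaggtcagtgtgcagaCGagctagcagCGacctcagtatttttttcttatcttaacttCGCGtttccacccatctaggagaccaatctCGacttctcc
Dmgdh: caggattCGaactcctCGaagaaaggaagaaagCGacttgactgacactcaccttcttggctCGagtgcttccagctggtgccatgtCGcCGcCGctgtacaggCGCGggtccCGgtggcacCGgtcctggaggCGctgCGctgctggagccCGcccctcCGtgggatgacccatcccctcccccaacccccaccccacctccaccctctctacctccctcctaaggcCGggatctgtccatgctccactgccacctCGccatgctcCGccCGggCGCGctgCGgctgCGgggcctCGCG
Mtr: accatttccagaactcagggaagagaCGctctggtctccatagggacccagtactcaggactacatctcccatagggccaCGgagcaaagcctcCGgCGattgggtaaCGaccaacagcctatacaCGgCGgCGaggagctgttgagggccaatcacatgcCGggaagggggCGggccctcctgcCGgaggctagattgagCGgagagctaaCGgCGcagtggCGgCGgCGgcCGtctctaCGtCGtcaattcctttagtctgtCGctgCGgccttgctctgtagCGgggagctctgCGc
Cbs: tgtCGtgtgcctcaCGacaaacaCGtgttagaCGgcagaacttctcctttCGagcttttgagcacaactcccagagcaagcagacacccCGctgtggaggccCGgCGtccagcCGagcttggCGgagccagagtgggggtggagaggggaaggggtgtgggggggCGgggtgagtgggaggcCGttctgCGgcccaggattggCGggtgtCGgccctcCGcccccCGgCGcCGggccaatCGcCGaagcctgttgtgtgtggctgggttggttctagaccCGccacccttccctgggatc
The Bhmt window held 8 CG dinucleotides at 48.0% G+C, the fewest among the members. The Dmgdh, Mtr and Cbs windows held 25, 24 and 22, that of Bhmt2 held 26, and the median over 32851 windows was 7. Motifs were searched on both strands. CCAAT occurred 2 times each in the Bhmt, Mtr and Cbs windows and not in that of Dmgdh, and 37.4% of all windows held it. TATAAA (13.6% of all windows) and TGATGNAAT (1.0%) were in none of the 4, CACGTG (7.2%) was in that of Cbs alone, and GGGCGG (35.7%) was in those of Dmgdh, Mtr and Cbs. CACGTG and GGGCGG contain a CG dinucleotide and so overlap those marked. Methylation and factor binding were not measured.

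The values were deposited log2 signals, which compare arrays within a gene and not genes with each other. Markers of the labelled stage were present. The 6 trophectoderm genes had array means of 10.76 to 11.78 in GM501 twins, 10.38 to 11.94 in SAGE twins and 11.78 to 12.07 in controls. The range of the controls lay at the top of those of the twins, and its part in the results was not tested. The 5 epiblast genes had array means of 7.23 to 9.36 in GM501 twins and 6.92 to 8.20 in SAGE twins, against 8.11 to 9.08 in controls, so that the ranges of SAGE twins and controls overlapped between 8.11 and 8.20 alone. Klf2 alone of the 5 had higher group means in twins, 6.55 and 6.48 against 6.11 in controls. The 4 measured primitive endoderm genes had 8.55 to 9.20 and 8.36 to 9.16 in the twin groups, against 8.71 to 9.25 in controls. The part of either list in the results was not tested. Of other cells, 2 of 3 oviduct, 3 of 3 cumulus and 1 of 4 blood markers were measured. They had array means from 4.06 to 5.32, around the lowest kept mean, and Has2, the hyaluronan synthase of cumulus cells, was the highest of them at 5.97 ± 0.61 in the GM501 group, 6.00 ± 0.55 in the SAGE group and 5.93 ± 0.48 in controls (SD, n = 10 each). The array medians fell into sets. They were 5.01 ± 0.15 in the 12 twins of pairs 1 to 6, 4.69 ± 0.18 in the 8 twins of pairs 7 to 10 and 4.64 ± 0.03 in the controls (SD), with the SAGE twin of pair 8 apart at 5.12. The sets are runs of pair numbers drawn where these medians differed, and are named as a batch in no label. The controls lay beside pairs 7 to 10, so the called genes named in comparisons of pair means with controls are also given in pairs 7 to 10. The median difference of all genes, pair means minus controls, was 0.11 and turned to -0.13 with arrays centred on their medians. Less RNA of a gene per cell and fewer cells of a type that holds it cannot be told apart in whole blastocysts.

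Of the 8 measured members, Bhmt had the widest range among twins. Its log2 signal ran from 5.23 to 10.48 with a median of 8.40 in GM501 twins, from 5.29 to 8.54 with a median of 6.75 in SAGE twins, and from 4.50 to 6.58 with a median of 5.40 in controls. The group means were 8.24 ± 1.86, 6.91 ± 1.05 and 5.45 ± 0.73 in the same order (SD, n = 10 each). Of the GM501 twins 8 and of the SAGE twins 6 lay above the highest control, and the groups overlapped. Relative to controls Bhmt was higher by 2.79 ± 0.59 in GM501 twins, by 1.46 ± 0.38 in SAGE twins and by 2.12 ± 0.42 in pair means (SE, n = 10 each). Since Bhmt was chosen for this difference, the values are a description without a test. In pair means the difference was 2.32 ± 0.44 in pairs 1 to 6 and 1.83 ± 0.51 in pairs 7 to 10, so that both sets were higher on average. Of single twins, 9 of 12 in pairs 1 to 6 and 5 of 8 in pairs 7 to 10 lay above the highest control.

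The distribution among GM501 twins was uneven. The twins of pairs 2, 5, 6, 8 and 9 had signals of 9.79, 9.49, 10.17, 10.48 and 9.60, those of pairs 1, 3, 4 and 10 had 7.30, 6.79, 6.48 and 7.04, and that of pair 7 had 5.23. No GM501 twin lay between 7.30 and 9.49. Among SAGE twins, those of pairs 2, 5 and 10 were highest at 8.26, 8.54 and 7.79, and that of pair 7 was lowest at 5.29. Both blastocysts of pair 7 thus lay within the range of the controls.

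**Figure D1:**
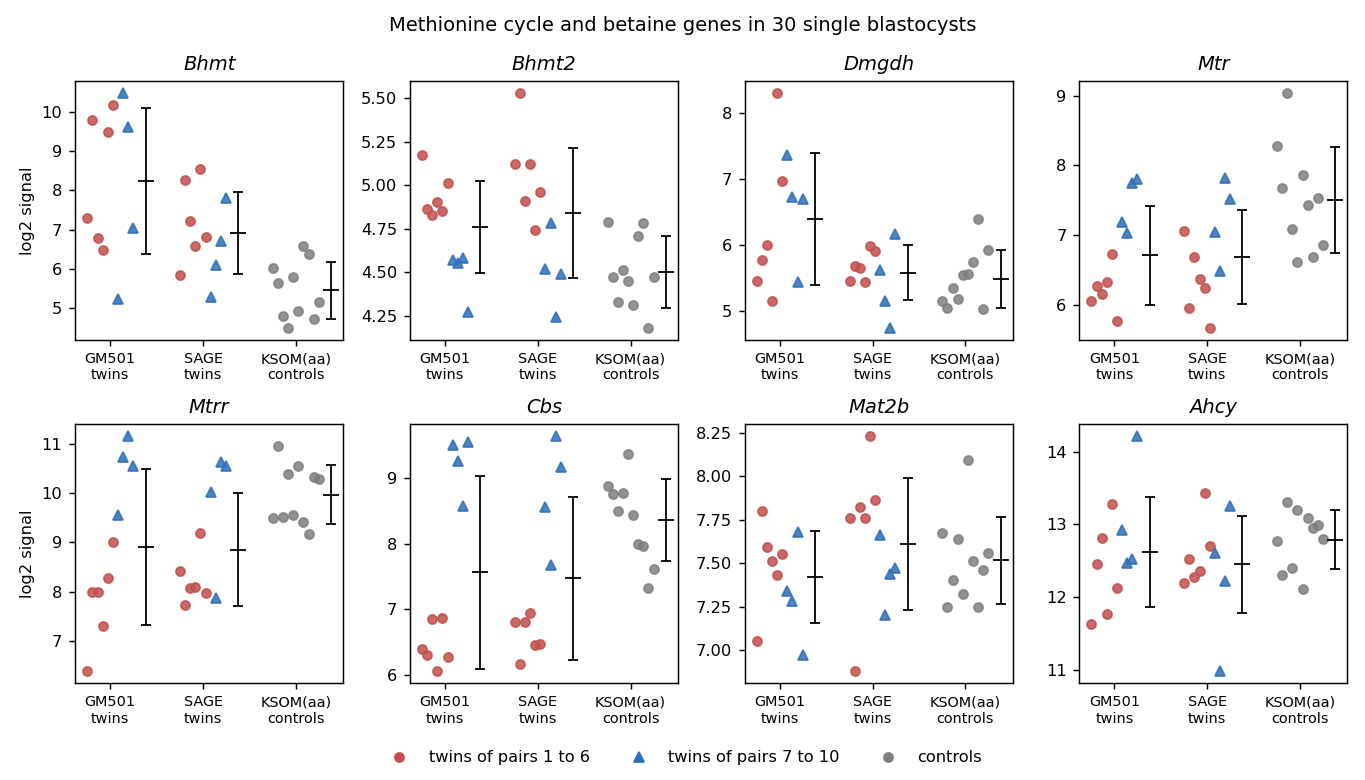
Each point is 1 blastocyst, by gene and group, on the log2 signal scale; bars give the mean and SD of 10 arrays. Bhmt is above the highest control in 8 GM501 and 6 SAGE twins, which come from both sets of pairs, whereas Mtr, Mtrr and Cbs are low mainly in twins of pairs 1 to 6.

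The identity of the Bhmt signal has a limit. The identifier of the cluster used carries the number of chromosome 18, although Bhmt lies on chromosome 13. Over 28120 clusters that could be checked, 99.72% carried the number of their gene's chromosome, and 78 did not. A second Bhmt cluster with the number 13 averaged 6.70 ± 1.52 in GM501 twins and 5.94 ± 0.70 in SAGE twins, against 5.04 ± 0.43 in controls (SD, n = 10 each), which put GM501 and SAGE twins above controls by 1.65 and 0.90. The cluster of the pseudogene Bhmt-ps1 on chromosome 4 averaged 6.62 ± 1.32, 5.94 ± 0.63 and 5.01 ± 0.44 in the same order. Twins above the highest control numbered 14 of 20 in the cluster used, 11 in the second and 14 in that of Bhmt-ps1.

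The 3 clusters moved together from blastocyst to blastocyst. Between the 2 Bhmt clusters Pearson's r was 0.748 in SAGE twins and 0.958 in controls (n = 10 each; permutation p adjusted over 9 relations 0.0156 and 0.00045). Spearman's rho was 0.833 and 0.939 (adjusted permutation p 0.00706 and 0.00117), and r without the 2 arrays farthest from the median was 0.846 and 0.920. Between the cluster used and that of Bhmt-ps1, r was 0.789 in SAGE twins and 0.930 in controls (adjusted permutation p 0.00952 and 0.00045), rho was 0.830 and 0.952 (0.00706 and 0.00099), and r without the 2 farthest was 0.762 and 0.868. For GM501 twins no r is given, since the gap between 7.30 and 9.49 leaves 5 arrays on each side, too few for a test within either. Their 5 highest arrays in the cluster used were also their 5 highest in both other clusters. In controls the second cluster (4.46 to 5.80) and that of Bhmt-ps1 (4.34 to 5.60) lay around the lowest kept mean of 4.8. Which of the copies the probes read was not tested, so these correlations do not tell the gene from its pseudogene.

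**Figure D2:**
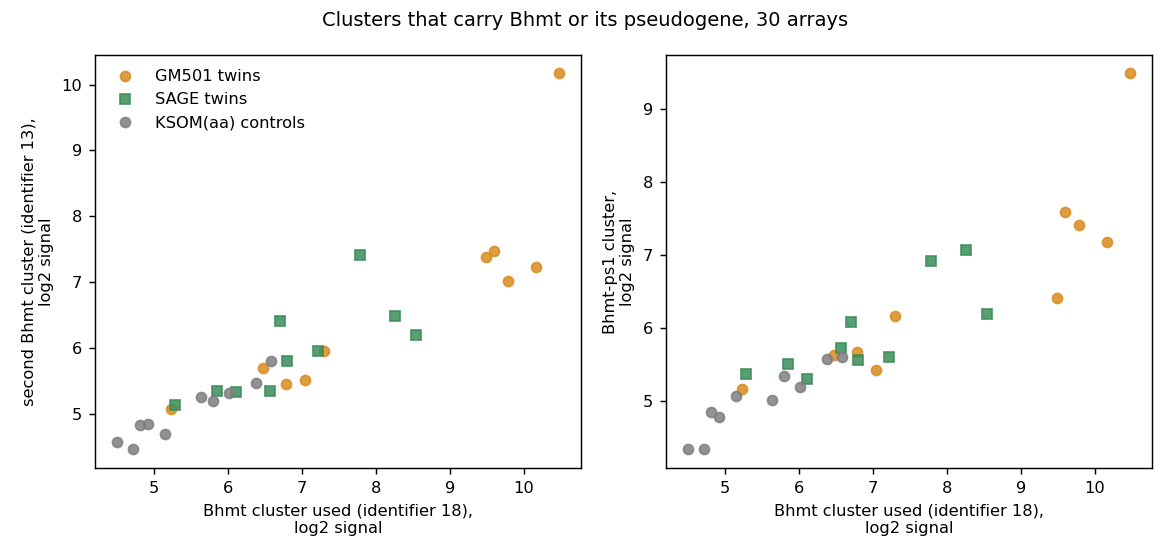
Each point is 1 array, with the log2 signal of the Bhmt cluster used on the x axis and that of the second Bhmt cluster (left) or of Bhmt-ps1 (right) on the y axis. The GM501 twin of pair 8, at 10.48 on the x axis, is highest in all 3 clusters.

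The media were compared within pairs, which was not the difference that chose Bhmt. The same twin values enter both, and earlier results were known, so the Bhmt values here are not shown to be free of that choice. limma called 0 of the 7 members at an adjusted p under 0.05, and 0.0% of all 18086 genes. Of all genes 695 had an unadjusted p under 0.05, a smaller share than the 0.05 that chance alone gives. Bhmt was higher in the GM501 twin in 6 of 10 pairs, with differences from -0.75 in pair 10 to 4.37 in pair 8. The mean difference was 1.32 ± 0.48 (SE, n = 10 pairs; 95% interval 0.27 to 2.38), which did not pass the adjustment (limma, unadjusted p = 0.0179, adjusted p = 1.0). Without pair 8 it was 0.99 ± 0.42, and in the cluster with the number 13 it was 0.75 ± 0.48 (95% interval -0.29 to 1.80). In pairs 6, 8 and 9 the GM501 twin exceeded its sister by 3.37, 4.37 and 2.90, and in pairs 3, 4, 7 and 10 the sister in SAGE was higher, by at most 0.75.

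Dmgdh, the mitochondrial dimethylglycine dehydrogenase that oxidises the product of the betaine reaction, differed in 1 direction in more pairs than any other member. Its signal ran from 5.16 to 8.30 with a median of 6.35 in GM501 twins, from 4.75 to 6.16 with a median of 5.65 in SAGE twins, and from 5.03 to 6.40 with a median of 5.45 in controls. Of the GM501 twins 5 and of the SAGE twins 0 lay above the highest control. It was higher in the GM501 twin in 8 pairs, equal in pair 1 and lower in pair 4, by 0.81 ± 0.24 on average (SE, n = 10 pairs; 95% interval 0.28 to 1.33; limma, unadjusted p = 0.00584, adjusted p = 1.0). Pairs 5, 7, 8 and 6 had the widest gaps, 2.32, 1.73, 1.56 and 1.05. The mean gap was 0.59 ± 0.33 in pairs 1 to 6 and 1.13 ± 0.26 in pairs 7 to 10. The GM501 twins of pairs 5, 6, 8 and 10 lay above all controls in both Bhmt and Dmgdh, but the GM501 twin of pair 7, second in Dmgdh at 7.36, was the lowest in Bhmt at 5.23.

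The other members differed little between media beside their spread. Mtr, which encodes methionine synthase, differed by 0.02 ± 0.15 (95% interval -0.30 to 0.35). Mtrr, the reductase that restores the cobalamin of methionine synthase, differed by 0.04 ± 0.37 (-0.76 to 0.84), with pair 8 at 2.89 and pair 1 at -2.04. Cbs, the cystathionine beta-synthase that opens the route to cysteine, differed by 0.09 ± 0.23 (-0.41 to 0.59), Ahcy, the hydrolase of S-adenosylhomocysteine, by 0.17 ± 0.20 (-0.28 to 0.61), and Mat2b, the regulatory subunit of methionine adenosyltransferase, by -0.19 ± 0.15 (-0.52 to 0.15). Each had an adjusted p of 1.0 in limma, and of the 5 intervals that of Mtr alone stays within 0.5 on both sides. Without pair 8, whose SAGE array was apart in its median, Mtr, Mtrr and Cbs differed by -0.03, -0.27 and -0.07. Ahcy and Mat2b then differed by 0.02 and -0.22.

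**Figure D3:**
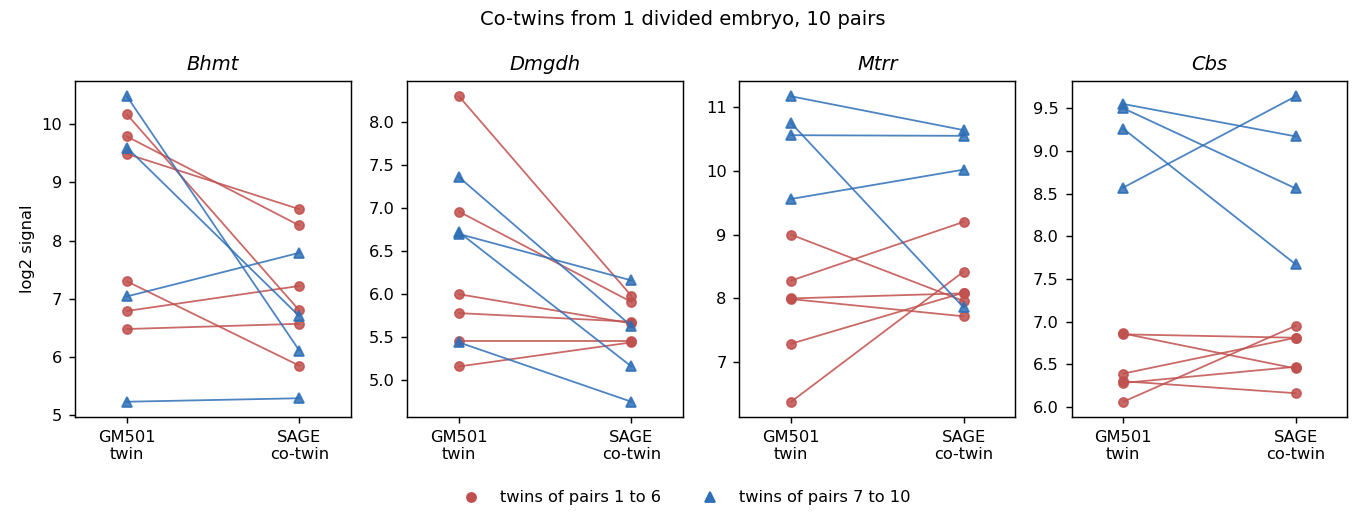
Lines join the GM501 twin (left) to its SAGE co-twin (right) on the log2 signal scale, for 10 pairs and 4 genes. Dmgdh is lower in the SAGE co-twin in 8 pairs and Bhmt in 6, while for Cbs the pairs stay in their set whichever the medium.

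Against controls, the genes of the folate branch of remethylation were lower in twins of pairs 1 to 6, and in pair means of all pairs. Mtr ran from 5.77 to 7.81 with a median of 6.53 in GM501 twins, from 5.67 to 7.82 with a median of 6.59 in SAGE twins, and from 6.62 to 9.04 with a median of 7.48 in controls. The ranges overlapped, and 10 of 20 twins, 9 of them of pairs 1 to 6, lay below the lowest control and 0 above the highest. Mtrr ran from 6.38 to 11.17 with a median of 8.64 in GM501 twins, from 7.72 to 10.64 with a median of 8.26 in SAGE twins, and from 9.17 to 10.97 with a median of 9.93 in controls. Here 12 of 20 twins, 11 of them of pairs 1 to 6, lay below the lowest control and 1 above the highest. For both Mtr (6.48) and Mtrr (7.86) the remaining low twin was the SAGE twin of pair 8, the array apart at a median of 5.12. The part of that median in these values was not tested.

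In pair means Mtr fell by 0.81 ± 0.30 and Mtrr by 1.10 ± 0.40 (SE, n = 10 each; limma, adjusted p = 0.0497 and 0.0499). They were the 2 called among the 6 members tested here, both lower, where 25.6% of all genes were called and 11.4% were called lower. Both calls were close to the threshold: Mtr lost its call without pair 8 (adjusted p = 0.0542) and in the upper 40% of genes (0.0501), and Mtrr lost its call under quantile normalization (adjusted p = 0.0510). In GM501 twins alone 0 of the 6 passed, where 13.8% of all genes did, and Mtr and Mtrr differed by -0.80 and -1.07 (limma, adjusted p = 0.0777 and 0.123). In SAGE twins alone 0 of the 6 passed, where 16.1% of all genes did, at -0.82 and -1.12 (limma, adjusted p = 0.0628 and 0.0515). In SAGE twins calls appeared under other settings. Mtr and Mtrr passed with arrays centred (18.7% of all genes called) and without the filter (26.2%), Mtr under quantile normalization (15.2%), and Mtrr in the upper 40% of genes (17.8%) and with limma's trend and robust options (18.1%). Mtr, Mtrr and Cbs passed with array weights (49.1% in SAGE twins) and in pairs 1 to 6 alone (59.4% of all genes called in GM501 twins and 58.8% in SAGE twins). These comparisons share the 10 control arrays.

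Cbs, Dmgdh, Ahcy and Mat2b did not pass in pair means. With array weights Cbs (-1.40, adjusted p = 0.00134) and Dmgdh (0.52, adjusted p = 0.0486) did, in a fit that called 59.7% of all genes. Cbs differed by -0.85 ± 0.42, Dmgdh by 0.49 ± 0.23 and Ahcy by -0.26 ± 0.22 (limma, adjusted p = 0.126, 0.106 and 0.370). With arrays centred or quantile-normalized the difference of Dmgdh was 0.25 (limma, adjusted p = 0.490 and 0.468). Mat2b differed by -0.001 ± 0.11, with a 95% interval of -0.23 to 0.22. Dmgdh differed from controls by 0.89 ± 0.32 in GM501 twins and by 0.09 ± 0.19 in SAGE twins (limma, adjusted p = 0.0635 and 0.730). In GM501 twins it passed with the embryo as a random block (adjusted p = 0.0477), where 9.44% of all genes were called, and with array weights (adjusted p = 0.0136), where 43.7% were. Bhmt2, a paralogue that uses S-methylmethionine as methyl donor, had signals of 4.76 ± 0.26 in GM501 twins and 4.84 ± 0.37 in SAGE twins, against 4.50 ± 0.21 in controls (SD, n = 10 each). Without the filter on low signals its pair means were higher by 0.30 ± 0.11 (limma over 30142 genes, adjusted p = 0.0399), where 33.0% of those genes were called higher, and all 11 twins above the highest control were of pairs 1 to 6. Between the sets it was higher in pairs 1 to 6 by 0.50 ± 0.10 (limma over 30142 genes, adjusted p = 0.00513), where 40.3% of genes were called higher. Since the sets were read from these same arrays, this is a description.

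Mtr, Mtrr and Cbs were lower in the twins of pairs 1 to 6 than in those of pairs 7 to 10. The signal of Cbs was 6.06 to 6.95 in the 12 twins of pairs 1 to 6, 7.67 to 9.64 in the 8 twins of pairs 7 to 10, and 7.33 to 9.37 in controls. All 12 of the first set lay below the lowest control and below all 8 of the second. Of all genes, 5.55% had pairs 1 to 6 entirely below the controls and 2.75% had them entirely below pairs 7 to 10. Mtrr averaged 8.03 ± 0.73 in pairs 1 to 6 and 10.14 ± 1.04 in pairs 7 to 10, against 9.97 ± 0.61 in controls (SD, n = 12, 8 and 10 arrays). Mtr averaged 6.27 ± 0.40 and 7.33 ± 0.48 in the 2 sets, against 7.50 ± 0.76 in controls.

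On pair means, the differences of pairs 1 to 6 from pairs 7 to 10 were -2.46 ± 0.18 for Cbs, -2.10 ± 0.34 for Mtrr and -1.05 ± 0.23 for Mtr (SE, 6 against 4 pairs; limma, adjusted p = 1.7e-05, 0.000765 and 0.00429). These were the 3 called among 7 members, all lower, where 46.7% of all genes were called and 17.3% were called lower. Bhmt and Dmgdh differed by 0.49 ± 0.71 and -0.01 ± 0.38, and Ahcy and Mat2b by -0.18 ± 0.37 and 0.22 ± 0.13 (limma, adjusted p from 0.178 to 0.988). With arrays centred on their medians the differences of Cbs, Mtrr and Mtr were -2.78, -2.43 and -1.38, and all 3 stayed called. The sets were read from the medians of these same arrays, so the p-values describe the split and are no independent test of it. The sets are runs of pair numbers drawn where the array medians differed, although the SAGE twin of pair 8, at 5.12, lay apart from its set. The part of the array median in these differences was not tested.

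Against controls, the difference of Cbs had opposite signs in the sets and passed in pairs 1 to 6. There Cbs, Mtrr and Mtr fell, with differences of -1.83 ± 0.25, -1.94 ± 0.27 and -1.23 ± 0.30 (SE, 6 pair means and 10 controls; limma, adjusted p = 1.2e-05, 1.7e-05 and 0.00215), 3 of 6 members in a comparison that called 64.1% of all genes, 22.0% lower. In pairs 7 to 10 the same genes differed by 0.63 ± 0.31, 0.17 ± 0.34 and -0.18 ± 0.38 (limma, adjusted p from 0.414 to 0.916), and 0 of 6 members passed where 0.73% of all genes did. Dmgdh differed by 0.49 ± 0.26 in pairs 1 to 6 and by 0.50 ± 0.27 in pairs 7 to 10 (limma, adjusted p = 0.109 and 0.477). In the same order GM501 twins alone were at 0.78 and 1.06, and SAGE twins alone at 0.19 and -0.07.

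**Figure D4:**
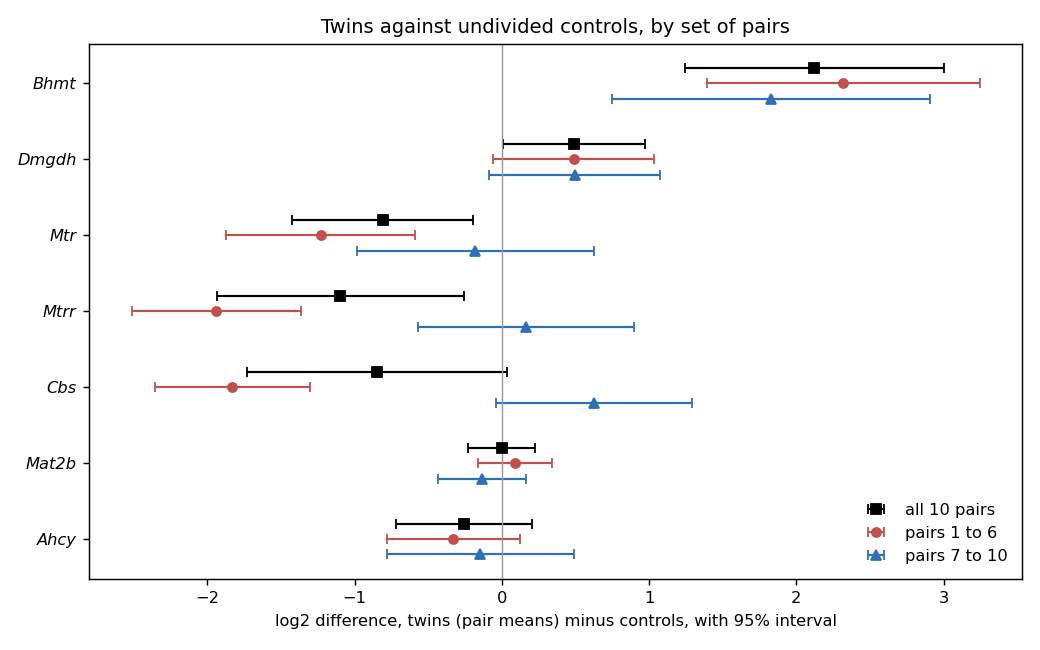
Points are log2 differences, pair means of twins minus controls, with limma's 95% intervals, for all 10 pairs, pairs 1 to 6 and pairs 7 to 10. Bhmt and Dmgdh have points above 0 in both sets, Dmgdh without passing in either, whereas Cbs is at -1.83 in pairs 1 to 6 and 0.63 in pairs 7 to 10. The interval of Bhmt describes a gene chosen for this difference.

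The same 3 genes differed between embryos of origin. With medium in the model, limma's F test over the 10 pairs called Cbs (F = 12.7), Mtr (F = 7.80) and Mtrr (F = 4.44), at adjusted p of 0.00234, 0.00882 and 0.0411, 3 of 7 members where 26.4% of all genes were called. Ahcy (F = 3.74), Dmgdh (F = 2.78), Bhmt (F = 2.60) and Mat2b (F = 0.74) did not pass, with adjusted p from 0.0613 to 0.715. The call of Mtrr was lost under quantile normalization (adjusted p = 0.0508) and without the filter (adjusted p = 0.0522). Without pair 8, Ahcy passed as well (adjusted p = 0.0290). The 10 pairs include both sets, so this test holds the difference between them.

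The signal of Ahcy ran from 11.63 to 14.22 in GM501 twins, from 10.98 to 13.44 in SAGE twins and from 12.11 to 13.31 in controls. Its means were 12.62 ± 0.76, 12.45 ± 0.67 and 12.79 ± 0.40 (SD, n = 10 each), and neither twin group was separated from the controls. The cluster used carries the number of chromosome 16, although Ahcy lies on chromosome 2 (chr2:155059310-155074497, GRCm38.p6). A second cluster with the number 2 averaged 11.01 ± 0.83, 10.70 ± 0.75 and 11.12 ± 0.28. The 2 clusters correlated with r of 0.830, 0.609 and 0.342 in GM501 twins, SAGE twins and controls (adjusted permutation p 0.00211, 0.0568 and 0.332), with rho of 0.817, 0.358 and 0.455 (0.00744, 0.313 and 0.214). Without the 2 farthest arrays r was 0.747, 0.285 and 0.198, so that of the 3 groups the GM501 twins alone gave a relation that passed. No GM501 twin lay between 10.31 and 11.30 in the second cluster, and those below this gap were all of pairs 1 to 6. The part of this step in the relation was not tested. In this second cluster pairs 1 to 6 were lower than pairs 7 to 10, at a difference of -0.97 ± 0.31 (SE; limma, adjusted p = 0.0271), which the cluster used did not show. Since the sets were read from these same arrays, this is a description.

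The genes around the cycle were read from 6 lists of 63 genes, of which 51 were tested. In pair means against controls 2 were higher and 15 lower, where 14.1% of all genes were called higher and 11.4% lower, at a median difference of -0.19 against 0.11 over all genes. Between the media 0 of the 51 were called. In pairs 1 to 6 alone 12 were higher, where 42.1% of all genes were, and 20 lower, where 22.0% were. In pairs 7 to 10 alone 0 were called, where 0.73% of all genes were, so that this count is no result about the lists. The median of all lists there was -0.14. In the folate cycle 6 of 11 genes fell and 0 rose, against the 11.4% of all genes called lower, with a list median of -0.51. None of the 11 passed in pairs 7 to 10 alone, where 0.73% of all genes did and the list median was -0.16. Shmt2, the mitochondrial serine hydroxymethyltransferase, averaged 8.71 ± 1.32 in GM501 twins and 8.80 ± 1.10 in SAGE twins, against 10.43 ± 0.63 in controls (SD, n = 10 each), and 14 of 20 twins lay below the lowest control. In pair means it fell by 1.68 ± 0.38, and Mthfd1, the trifunctional folate enzyme of the cytosol, by 1.46 ± 0.42 (SE; limma, adjusted p = 0.00889 and 0.0209). Mthfd1 ran from 9.31 to 13.53 in GM501 twins and from 8.22 to 13.67 in SAGE twins, against 12.69 to 13.30 in controls, with 13 twins below and 5 above all controls. In pairs 7 to 10 the differences were -0.65 for Shmt2 and -0.11 for Mthfd1. The folate transporter Slc46a1 and the folate receptor Folr1 fell by 0.80 and 0.76 (limma, adjusted p = 0.0145 and 0.0190), and differed by -0.35 and -0.30 in pairs 7 to 10.

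Of 9 genes of cobalamin handling 2 fell, where 11.4% of all genes did, a count that is no result about this list. The list median was 0.02. Tcn2, the carrier transcobalamin, fell by 0.71 ± 0.18 and Abcd4, a lysosomal transporter of cobalamin, by 0.61 ± 0.13 (limma, adjusted p = 0.0141 and 0.00791). They differed by -0.59 and -0.28 in pairs 7 to 10. Of 12 genes of choline and betaine supply, 3 fell and 2 rose, where 11.4% of all genes were called lower and 14.1% higher. These counts too are no result about the list, and its median was -0.23. Chka, choline kinase, which draws choline into phosphatidylcholine, fell by 1.16 ± 0.28, and Slc44a1, a choline transporter, by 0.84 ± 0.27 (limma, adjusted p = 0.0117 and 0.0313). In pairs 7 to 10 Chka differed by -0.34 and Slc44a1 by 0.10 (limma, adjusted p = 0.643 and 0.875). Slc6a12, a transporter of betaine and GABA, and Gnmt, glycine N-methyltransferase, rose by 0.30 ± 0.09 and 0.29 ± 0.09 (limma, adjusted p = 0.0266 and 0.0353). Both calls were lost with arrays centred on their medians, at 0.06 and 0.04. They were lost too in pairs 7 to 10 alone, at 0.17 and 0.16, where 0.73% of all genes were called.

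In the other lists 1 or 2 genes fell, counts that, where 11.4% of all genes were called lower, are no result about these lists. Of 7 genes of S-adenosylmethionine synthesis and use, 2 did: Ahcyl1, related in sequence to Ahcy, by 0.57 ± 0.17, and Srm, spermidine synthase, by 0.62 ± 0.23 (limma, adjusted p = 0.0257 and 0.0495). In methionine salvage 1 of 5 fell, Enoph1, an enolase-phosphatase, by 0.58 ± 0.20, and in transsulfuration and glutathione 1 of 7, Gss, glutathione synthetase, by 0.67 ± 0.15 (limma, adjusted p = 0.0378 and 0.00806). Gss lay below the lowest control in 16 of 20 twins. The medians of these lists were 0.04, -0.01 and -0.27. None of these 4 genes passed in pairs 7 to 10, where 0.73% of all genes did. Their differences there were -0.14 for Ahcyl1, -0.49 for Srm, -0.68 for Enoph1 and -0.40 for Gss. With arrays centred, 23 of the 51 genes fell, where 21.0% of all genes were called lower, and 0 rose, and the share of higher calls among all genes called was 10.7% in place of 55.3%.

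**Figure D5:**
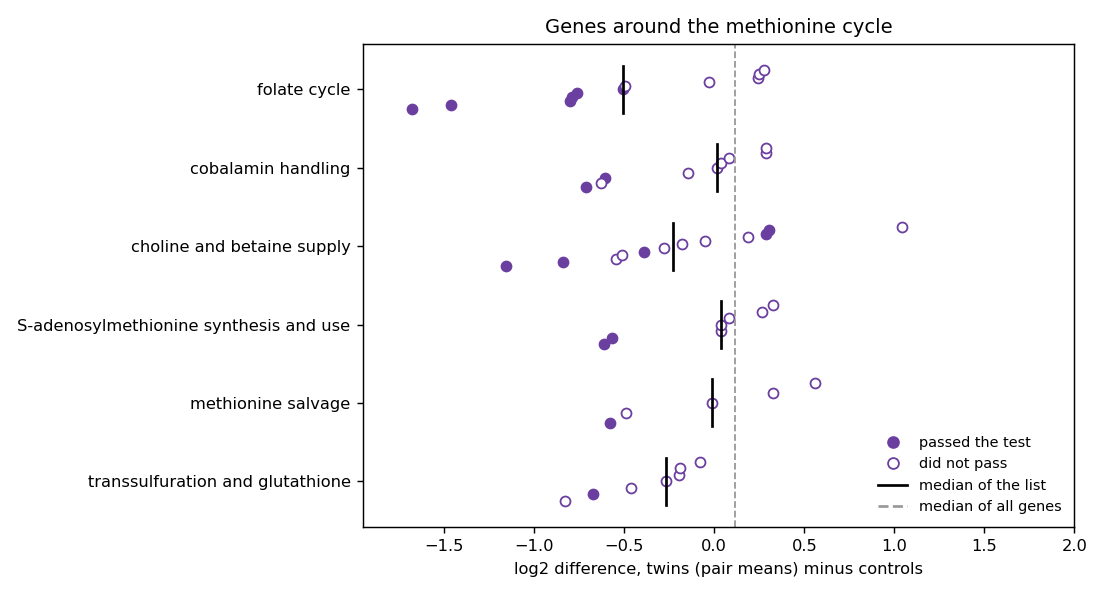
Points are log2 differences, pair means of twins minus controls, for the 51 tested genes in 6 lists; filled points passed limma's test, bars are list medians and the dashed line is the median of all genes at 0.11. The folate list lies lowest, with a median of -0.51 and 6 genes that fell.

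The genes whose pattern was most like that of Bhmt were ranked by Pearson's r over the 30 arrays, with each gene centred within its group of 10, among 12217 genes that are not predicted genes, pseudogenes or small RNAs. The leading 5 were Cst7 (r = 0.721), Plbd1 (0.707), Pramel38 (0.674), Tet2 (0.672) and Il1rn (0.671). Without the centring, r was 0.809 for Cst7, 0.796 for Plbd1 and 0.780 for Il1rn but 0.037 for Tet2. Over all 18085 other genes the first was Bhmt-ps1, at 0.853. No member was near: Dmgdh had the highest rank of them at 2018 (r = 0.238), and Mtr and Cbs both had r of -0.163. The arrays share co-twins and sets, so these values are a description.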

How the data were processed

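Each of the 30 arrays held 1 blastocyst. The values are the authors' deposited log2 signals of 65956 transcript clusters, made with RMA in Affymetrix Expression Console on mm10, per the submitters' processing notes; versions are not given in the sources used here, and the base of the logarithm was inferred from the range, 2.2 to 19.3. Clusters were named through the platform's gene listing and RefSeq (GRCm38.p6): 32750 had a gene, 30604 had 1 symbol (827 updated by gene ID), and 2146 had several and were not used. Array number limits precision, and RMA signals hold no depth.

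limma 3.58.1 in R 4.3.3 (lmFit, eBayes, two-sided) was fitted on the 18086 genes kept, with Benjamini-Hochberg adjustment over them and a call at an adjusted p under 0.05. It was tested on simulated data that had the same spread of a gene in all groups and no sets of pairs. The real arrays differ in both, so the simulation does not vouch for calls against controls. The media were compared within pairs, since the labels give co-twins 1 embryo of origin; centred within medium, partners correlated with r of 0.163 to 0.696, and 7 of 10 GM501 twins correlated best with their partner. Each twin group and the pair means were compared with controls. Array r ran from 0.928 to 0.985, and no arrays were identical. P-values against controls cover the spread among single blastocysts or pair means, which holds the difference between the sets where both enter. Those between media cover the spread of co-twin differences. How many matings or days the embryos came from is not in the labels, so no p-value separates these out. Correlations used 100000 permutations.

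The members, lists and sets were chosen with earlier results of these data known. Named were the members, up to 4 called genes per list with the smallest p, and the 5 genes most like Bhmt. Alternatives were centred or quantile-normalized arrays, no or a stricter filter (upper 40%), limma's trend and robust options, means over clusters, array weights, omission of pair 8, each set alone, other blocks and, added after seeing the data, the cluster whose identifier names the gene's chromosome.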

Additional observations from a re-analysis of the deposited data

Results flagged for a closer look

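The values of 8 genes in 3 groups of 10 were searched for single arrays apart from their group, and 2 of these 24 groups held one; chance gives about 1 in 20. In SAGE twins, Ahcy was 10.98 in the twin of pair 8, the array that also had the highest median of its set, and the next lowest SAGE twin was at 12.19. In controls, Mat2b was 8.09 in control 6, and the next highest control was at 7.67.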

How the results depend on the processing

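Genes called against controls numbered 2493 for GM501 twins, 2917 for SAGE twins and 4624 for pair means. In that order the counts were 5757, 7911 and 12409 without the filter, 7906, 8873 and 10794 with array weights, 10738, 10639 and 11601 in pairs 1 to 6, and 239, 147 and 132 in pairs 7 to 10. GM501 twins gave 4523 without pair 8, and pair means gave 2992 in the upper 40% of genes. Between the sets, 8454 became 15445 without the filter. The media gave 0 calls in all settings; without the replicate block 225 genes had an unadjusted p under 0.05, against 695 with it.

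Of 428 alternative values of single members, 367 kept direction and call where they have these. Those of Bhmt against controls have no call, and the F values of embryo of origin have no direction. A call was gained by 27 and lost by 6, apart from values whose sign turned. Array weights and pairs 1 to 6 gave most of the gains. In 26 the sign turned, and of these Mtrr pair means in pairs 7 to 10 also lost their call (limma, adjusted p = 0.915). Centring turned Mat2b (-0.15) and Dmgdh (-0.16) in SAGE twins against controls and Mat2b between the sets (-0.10), and quantile normalization turned Dmgdh (-0.14). Between the media, Mtr turned to -0.0034, -0.034 and -0.11 and Mtrr to -0.016, -0.27 and -0.42 under quantile normalization, without pair 8 and in pairs 1 to 6. Mtrr turned to -0.091 with array weights, Cbs to -0.073 without pair 8 and -0.15 in pairs 1 to 6, and Ahcy to -0.24 in pairs 1 to 6. Mat2b pair means turned to 0.091 with array weights, 0.029 without pair 8 and 0.088 in pairs 1 to 6. In pairs 7 to 10, Cbs turned to 0.86 in the GM501 group, 0.40 in the SAGE group and 0.63 in pair means, Mtrr to 0.54 in GM501 twins and 0.17 in pair means, Ahcy to 0.24 in GM501 twins, and Mat2b and Dmgdh to -0.073 and -0.069 in SAGE twins. Bhmt on its own-chromosome cluster turned to -0.41 between the sets, and was at 1.65 and 1.28 in GM501 twins and pair means against controls. The causes were not tested.

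Array number, amplification of little RNA and the overlap of controls with pairs 7 to 10 limit all comparisons with controls.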
